A study of Mus musculus with 23 samples.

Results

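The IL-12 and IL-6 families of cytokines were followed through 9 genes: Il12a, Il12b, Il23a, Il27 and Ebi3, which encode subunits of the IL-12 family, and Il6, Clcf1, Osm and Lif, which encode ligands of the IL-6 family. They were found through the RefSeq identifier that the array gives for each probe, and each of the 9 genes had 1 probe, so that 9 of the 55681 probes and 9 of the 26014 genes tested belong to them. Il12b was matched by its own RefSeq identifier. Its probe was printed on 10 spots of each array, that of Il6 on 2 spots and those of the other members on 1 spot each. No spot was saturated.

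RNA of bone marrow-derived macrophages (BMDM) from male C57BL/6 mice aged 10 to 14 weeks was hybridized with a single dye to 23 Agilent arrays, 1 per sample. The cells had been grown out of femoral marrow with M-CSF and came from wild-type mice (wt BMDM), from mice lacking the kinase MK2 (MK2-/- BMDM) or from mice without MK2 and its relative MK3 (MK2/3-/- BMDM). For 120 min the cells of each genotype received either medium alone or LPS at 100 ng/ml, which gave 6 groups of 4 arrays, except for MK2-/- BMDM in medium with 3. Each scanner record carries a letter (a, b, c or e), read here as the culture because the age of the mouse is the same for the medium and LPS arrays of a genotype with the same letter, and MK2-/- BMDM in medium lack culture c.

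Cytokines of the IL-12 family are pairs of subunits: Il12b encodes the chain that IL-12 and IL-23 have in common, Il12a and Il23a encode the partner that makes it IL-12 or IL-23, and Ebi3 pairs with the product of Il27 to form IL-27. IL-6, CLCF1, oncostatin M and LIF are single-chain ligands whose receptors contain gp130, the product of Il6st, and both families signal through JAK kinases and STAT factors. Macrophages and dendritic cells make many of these cytokines after Toll-like receptor stimulation, by transcription through NF-kappa B, AP-1 and C/EBP factors and by control of transcript stability, the step at which MK2 is best known to act.

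To show what lies before the start site of members that LPS raised strongly, moderately or not past the threshold, the 250 bases before the RefSeq start (GRCm38.p6) are given for 4 genes, 5′ to 3′ on the plus strand. Il6 lies at chr5:30012864-30013113, Il12b at chr11:44399813-44400062, Ebi3 at chr17:55952373-55952622 and Lif at chr11:4257318-4257567. Capitals mark matches, on either strand and with overlaps joined, to GGG and CC with 5 bases of any kind between them (kappa B), TGANTCA (AP-1) or TTGCNNAA (C/EBP).
Il6: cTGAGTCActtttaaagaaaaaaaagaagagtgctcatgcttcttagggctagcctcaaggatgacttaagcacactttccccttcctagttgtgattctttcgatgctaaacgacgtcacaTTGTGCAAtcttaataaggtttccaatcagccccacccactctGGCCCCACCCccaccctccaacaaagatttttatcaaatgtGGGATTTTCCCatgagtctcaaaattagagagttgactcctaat
Il12b: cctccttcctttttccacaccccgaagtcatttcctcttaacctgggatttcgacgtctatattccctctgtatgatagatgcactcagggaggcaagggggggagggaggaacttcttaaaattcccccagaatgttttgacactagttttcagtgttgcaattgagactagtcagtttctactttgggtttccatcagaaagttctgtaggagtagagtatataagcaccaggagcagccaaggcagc
Ebi3: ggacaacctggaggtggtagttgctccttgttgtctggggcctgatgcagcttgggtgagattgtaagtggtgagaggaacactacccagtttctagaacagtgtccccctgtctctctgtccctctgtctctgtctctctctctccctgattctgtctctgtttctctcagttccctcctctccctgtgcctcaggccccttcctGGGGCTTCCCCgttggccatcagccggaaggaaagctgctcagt
Lif: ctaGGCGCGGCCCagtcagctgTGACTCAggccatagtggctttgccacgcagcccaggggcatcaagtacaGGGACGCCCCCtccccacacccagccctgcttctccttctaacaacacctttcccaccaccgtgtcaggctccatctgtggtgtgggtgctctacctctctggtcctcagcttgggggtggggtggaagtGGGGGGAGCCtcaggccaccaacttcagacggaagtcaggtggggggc

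In this window the Il6 promoter held all 3 motifs, with kappa B letters starting 85, 44 and 43 bases before the start, AP-1 letters at 249 and C/EBP letters at 128. Ebi3 held a single overlapping kappa B pair that began 44 and 43 bases before the start. Lif held kappa B letters at 247, 178, 177 and 48 bases and AP-1 letters at 228, whereas the window of Il12b held none of the 3 motifs. Of the 32851 promoter windows of the same length, 45.8% held the kappa B letters, 6.75% the AP-1 letters and 9.56% the C/EBP letters. Promoters of 5 of the 9 members were in the table used, which for Il12a gave 2 starts, of which 1 had an overlapping kappa B pair at 113 and 112 bases. Osm and Lif are neighbours on chromosome 11 with 0 genes between them in the same assembly.

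The genotypes were checked first. In medium, Mapkapk2, which encodes MK2, had a log2 signal of 12.22 ± 0.51 (SD, n = 4) in wt, 8.91 ± 0.17 (n = 3) in MK2-/- and 8.72 ± 0.16 (n = 4) in MK2/3-/- BMDM. Mapkapk3, which encodes MK3, was at 13.50 ± 0.28, 13.74 ± 0.14 and 11.88 ± 0.22 in the same order. After LPS the means in this order were 14.77, 11.96 and 11.76 for Mapkapk2 and 14.01, 13.98 and 10.70 for Mapkapk3. Both probes thus went with the labels in medium and after LPS. The Mapkapk2 probe stayed well above background on all arrays of both knockouts and was brighter there after LPS than in medium. The log2 signal is the background-subtracted brightness of a probe after quantile normalization, and values of different probes are not compared with each other. All 7 macrophage markers measured, among them Csf1r, Adgre1 and Lyz2, were well above background on all 23 arrays. Markers of other cells were mixed within most lists. The mast cell markers Cpa3 and Mcpt4 were well above background on 1 array each. Of the NK cell markers Klrb1c was so on 8 arrays and Ncr1 on 4, and 1 of these 2 was higher after LPS in each genotype (limma adjusted p under 0.05). Their summed log2 signal after LPS was 3.51 to 5.43 in wt, 4.68 to 5.88 in MK2-/- and 5.27 to 8.19 in MK2/3-/- BMDM, and its part in the results was not tested. Of the T cell markers Cd3e was well above background on 23 arrays, Cd3g on 2 and Cd3d on 0, of the B cell markers Ms4a1 on 13 and Cd79a on 5, and of the neutrophil markers Elane on 23, Mpo on 16 and Prtn3 on 2. Of the dendritic cell markers Flt3 and Itgax were so on 23, Zbtb46 and Ccr7 on 22, Cd209a on 11 and Xcr1 on 1, and of the fibroblast markers Col1a1 on 23, Col3a1 on 20 and Pdgfra on 2. The summed signal of the fibroblast markers differed strongly between arrays of a group, from 9.49 to 14.15 on the log2 scale in wt, from 8.02 to 13.05 in MK2-/- and from 7.49 to 13.68 in MK2/3-/- BMDM after LPS. Its part in the results was not tested.

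After LPS, 64.32% to 67.4% of the probes with an NCBI accession were well above background in wt, 58.11% to 60.94% in MK2-/- and 57.24% to 63.58% in MK2/3-/- BMDM. The wt arrays thus lay above those of both knockouts, and the part of this in the genotype comparisons was not tested. Each genotype was hybridized on a slide of its own, so that genotype and slide cannot be told apart, and on each slide the medium arrays lay in one column and the LPS arrays in the other. In such samples, fewer cells with a transcript and less transcript per cell cannot be told apart either. The sources do not say whether each letter is a separate mouse, and the p-values measure the spread between these samples.

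LPS raised most members in each genotype. All p-values given as adjusted are those of limma, corrected over the 26014 genes, and a gene is said to rise or fall when the adjusted p was under 0.05. In wt BMDM 6 of the 9 members rose (Il12b, Il23a, Ebi3, Il27, Il6 and Clcf1), whereas 8.26% of all genes rose, and the median log2 difference was 4.02 for the members and 0.01 for all genes. In MK2-/- BMDM 7 members rose, with Il12a in addition, beside 8.48% of all genes. In MK2/3-/- BMDM 7 members rose, with Osm in addition to the 6 of wt BMDM, beside 11.9% of all genes. No member fell in any genotype, while 8.89%, 10.1% and 12.9% of all genes fell in wt, MK2-/- and MK2/3-/- BMDM. Lif passed the adjustment in none of the 3 genotypes.

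**Figure D1:**
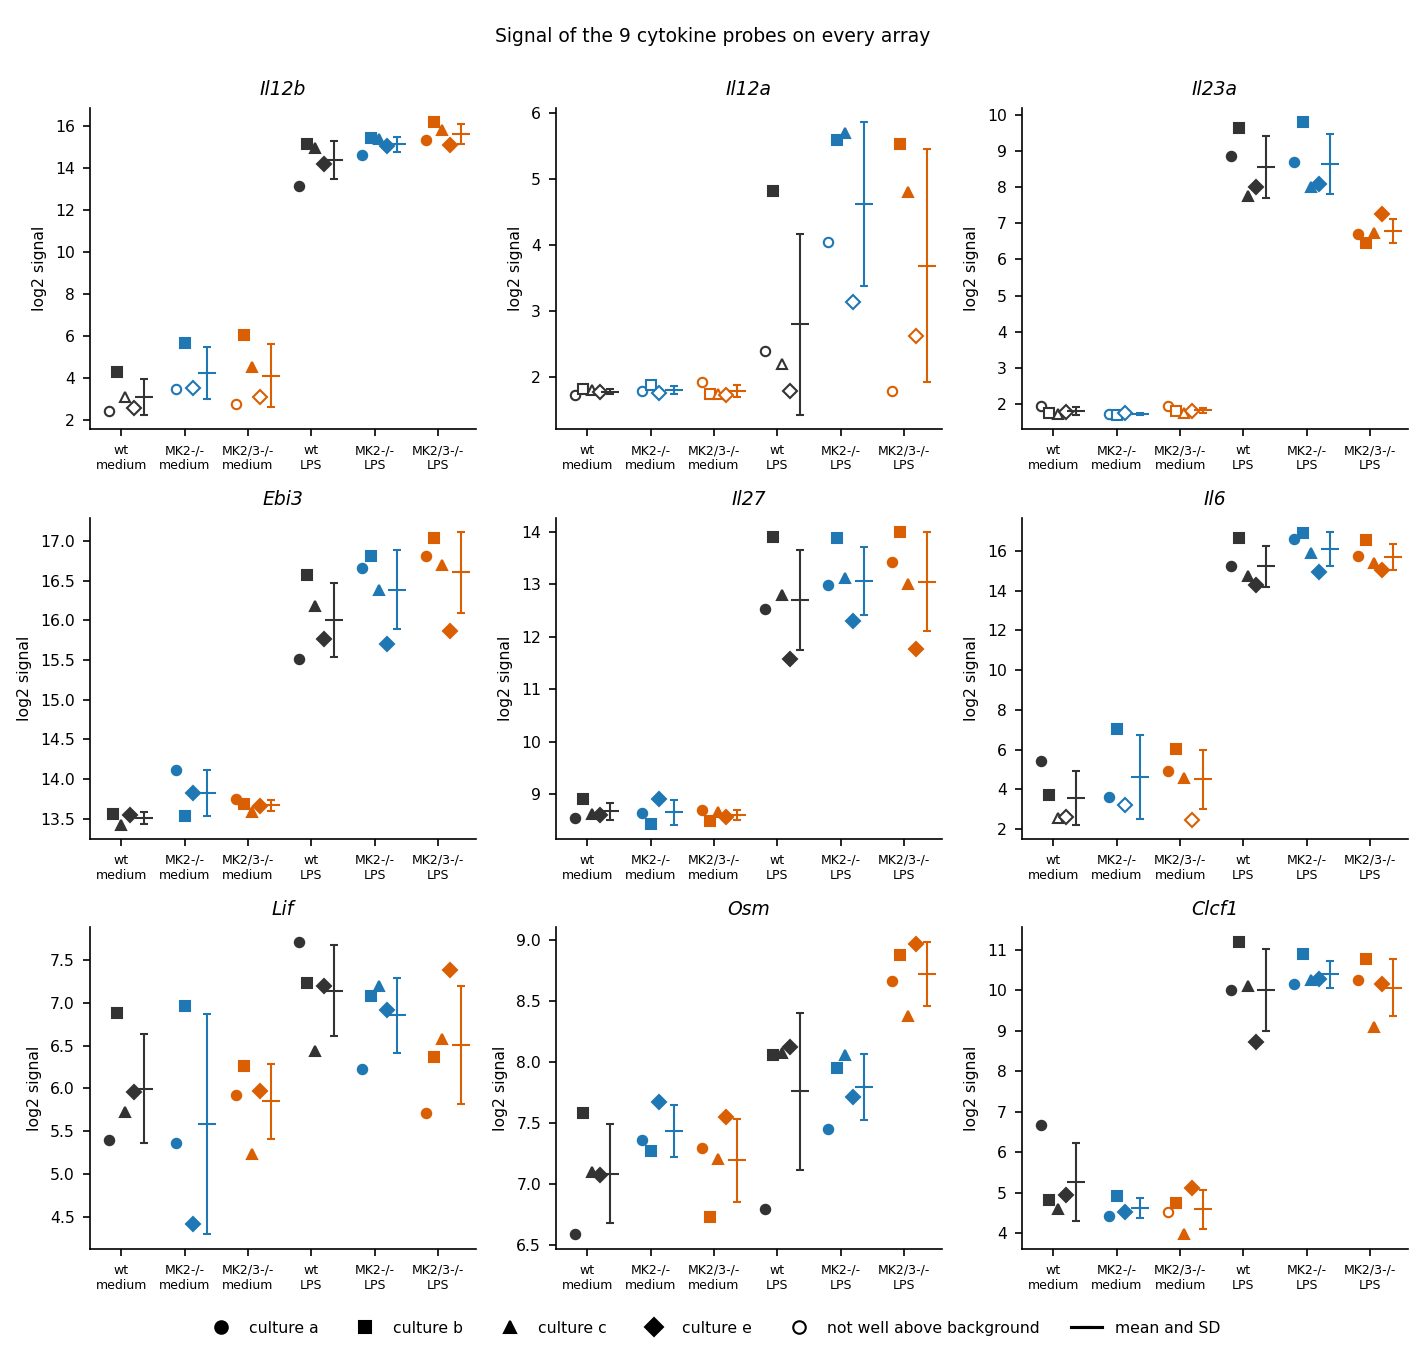
Log2 signal (y axis) of each of the 9 members on every array, by group (x axis), with 1 point per array, marker shapes for the culture letters, open points for signals not well above background and bars for mean and SD. After LPS, Il23a lies between 6.46 and 7.25 in MK2/3-/- BMDM and between 7.76 and 9.79 in the other genotypes, and Osm lies between 8.38 and 8.97 in MK2/3-/- BMDM and at or below 8.12 in the others.

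Il12b, the chain that IL-12 and IL-23 share, was near background in medium and bright after LPS. In wt BMDM its log2 signal in medium was 2.43, 4.30, 3.10 and 2.58 in cultures a, b, c and e, and after LPS it was 13.17, 15.17, 14.94 and 14.22. In MK2-/- BMDM it was 3.49, 5.65 and 3.55 in cultures a, b and e in medium and 14.65, 15.44, 15.40 and 15.05 after LPS, and in MK2/3-/- BMDM it was 2.76, 6.06, 4.52 and 3.12 in medium and 15.33, 16.18, 15.82 and 15.12 after LPS. The groups with and without LPS lay far apart in each genotype. Before LPS its signal stood well above background on 1 of 4, 1 of 3 and 2 of 4 arrays, and culture b was the brightest in all 3 genotypes. The log2 difference between LPS and medium was 11.27 (SE 0.64) in wt, 10.90 (SE 0.70) in MK2-/- and 11.50 (SE 0.64) in MK2/3-/- BMDM, with adjusted p-values of 1.91e-10, 1.18e-09 and 1.45e-10.

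Il23a, the subunit particular to IL-23, was not well above background on any of the 11 arrays from medium, where its log2 signal lay between 1.70 and 1.95. After LPS it was well above background on all 12 arrays. Its log2 signal was then 8.86, 9.64, 7.76 and 8.00 in cultures a, b, c and e of wt BMDM, 8.69, 9.79, 8.01 and 8.08 in MK2-/- BMDM and 6.70, 6.46, 6.73 and 7.25 in MK2/3-/- BMDM. Relative to the lowest signals of any probe that counted as well above background, the rise was 34.6-fold in wt, 34.0-fold in MK2-/- and 9.59-fold in MK2/3-/- BMDM. The adjusted p-values of the log2 differences were 6.84e-11, 2.06e-10 and 4.52e-09. These folds are not strict minima, since with normexp background the log2 differences were 2.78, 2.75 and 1.48.

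Il12a, which encodes the partner of the Il12b product in IL-12, was not well above background on any array from medium. It reached that level after LPS on 1 of 4 arrays of wt, 2 of 4 of MK2-/- and 2 of 4 of MK2/3-/- BMDM. After LPS its log2 signal was 2.39, 4.82, 2.19 and 1.78 in cultures a, b, c and e of wt BMDM, 4.05, 5.59, 5.70 and 3.13 in MK2-/- BMDM and 1.79, 5.54, 4.81 and 2.62 in MK2/3-/- BMDM, against 1.72 to 1.92 on all arrays from medium. The highest values of each genotype were those of cultures b and c, except in wt BMDM, where culture c was low. In MK2-/- BMDM, where all LPS arrays lay above all medium arrays, the rise taken as for Il23a was 2.09-fold, and the difference had an adjusted p of 0.0150. It had an adjusted p of 0.0539 without the LPS array of replicate 2 and of 0.0692 by the methods' t-test (0.0124 before adjustment). In MK2/3-/- BMDM the rise so taken was 1.12-fold with an adjusted p of 0.0632, which was 0.0314 with the culture as a block. In wt BMDM the adjusted p was 0.428.

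Il27 and Ebi3, which together encode IL-27, were well above background on all arrays measured, in medium also. The log2 signal of Il27 lay between 8.43 and 8.91 on the medium arrays and between 11.57 and 13.99 after LPS. It rose by 4.02 (SE 0.43), 4.41 (SE 0.47) and 4.44 (SE 0.43) in wt, MK2-/- and MK2/3-/- BMDM, which is 16.3-, 21.3- and 21.7-fold, with adjusted p-values from 2.28e-07 to 1.24e-06. Ebi3 was bright in medium, at 13.42 to 14.11, and lay between 15.52 and 17.04 after LPS. Its spot on the wt medium array of replicate 1 was marked by the scanner software and left out. The rise of Ebi3 was 2.50 (SE 0.29), 2.57 (SE 0.29) and 2.94 (SE 0.27), or 5.64-, 5.93- and 7.66-fold, with adjusted p-values from 1.53e-07 to 4.33e-06.

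Il6, the ligand after which its family is named, rose in all 3 genotypes from medium signals that were in part near background. In wt BMDM its log2 signal was 5.40, 3.73, 2.53 and 2.60 in cultures a, b, c and e in medium and 15.24, 16.67, 14.73 and 14.29 after LPS. It was 3.62, 7.05 and 3.20 in cultures a, b and e of MK2-/- BMDM in medium and 16.59, 16.90, 15.91 and 14.95 after LPS, and in MK2/3-/- BMDM 4.93, 6.05, 4.56 and 2.44 in medium and 15.73, 16.57, 15.41 and 15.06 after LPS. No LPS array came near a medium array, and in medium the signal ranged from 2.44 to 7.05, with 2 of 4, 2 of 3 and 3 of 4 arrays well above background. The log2 difference was 11.67 (SE 0.86) in wt, 11.46 (SE 0.93) in MK2-/- and 11.20 (SE 0.86) in MK2/3-/- BMDM, with adjusted p-values of 7.45e-09, 3.06e-08 and 1.00e-08.

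Clcf1, a ligand of the CNTF receptor, rose by 4.74 (SE 0.48) in wt, 5.77 (SE 0.52) in MK2-/- and 5.47 (SE 0.48) in MK2/3-/- BMDM, or 26.8-, 54.5- and 44.2-fold, with adjusted p-values from 5.45e-08 to 5.48e-07. Its log2 signal lay between 3.98 and 6.68 in medium and between 8.72 and 11.19 after LPS. The highest value in medium, 6.68 in culture a of wt BMDM, stood apart from the other wt arrays at 4.61 to 4.95, and without it the difference in wt BMDM was 5.22.

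Osm, which encodes oncostatin M, rose past the threshold in MK2/3-/- BMDM only. In wt BMDM its log2 signal was 6.59, 7.58, 7.10 and 7.07 in cultures a, b, c and e in medium and 6.80, 8.06, 8.07 and 8.12 after LPS. In MK2-/- BMDM it was 7.36, 7.27 and 7.68 in cultures a, b and e in medium and 7.45, 7.95, 8.06 and 7.72 after LPS, and in MK2/3-/- BMDM it was 7.29, 6.73, 7.20 and 7.55 in medium and 8.66, 8.88, 8.38 and 8.97 after LPS. The LPS arrays lay above all medium arrays in MK2/3-/- BMDM, and the groups overlapped in the other genotypes. The log2 difference was 1.53 (SE 0.27, adjusted p = 0.000278) in MK2/3-/- BMDM, or 2.88-fold, 0.68 (SE 0.27, adjusted p = 0.105) in wt and 0.36 (SE 0.29, adjusted p = 0.481) in MK2-/- BMDM. In wt BMDM the result changed without the LPS array of replicate 1 (culture a), to a difference of 1.00 with an adjusted p of 0.00432. That fit kept the medium array of culture a, at 6.59 the lowest of its group, although within this culture the rise was 0.21. With the culture as a block the adjusted p was 0.0414. Within cultures, Osm was higher after LPS by 0.21 to 1.05 in wt, 0.04 to 0.68 in MK2-/- and 1.17 to 2.15 in MK2/3-/- BMDM.

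Lif, the neighbour of Osm, had differences that passed the adjustment in none of the genotypes. After LPS its log2 signal was 7.71, 7.23, 6.43 and 7.19 in cultures a, b, c and e of wt BMDM, 6.22, 7.08, 7.19 and 6.92 in MK2-/- BMDM and 5.71, 6.37, 6.58 and 7.38 in MK2/3-/- BMDM, and in medium it lay between 4.42 and 6.96. The differences were 1.15 (SE 0.46, adjusted p = 0.107), 1.27 (SE 0.50, adjusted p = 0.0888) and 0.66 (SE 0.46, adjusted p = 0.345). The array of MK2-/- BMDM in medium from culture b was the brightest medium array of Lif, and without it the difference in MK2-/- BMDM was 1.97 with an adjusted p of 0.00710. That fit kept the LPS array of culture b, although within this culture the rise was 0.12. Culture b was the brightest for Lif in medium in all 3 genotypes.

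**Figure D2:**
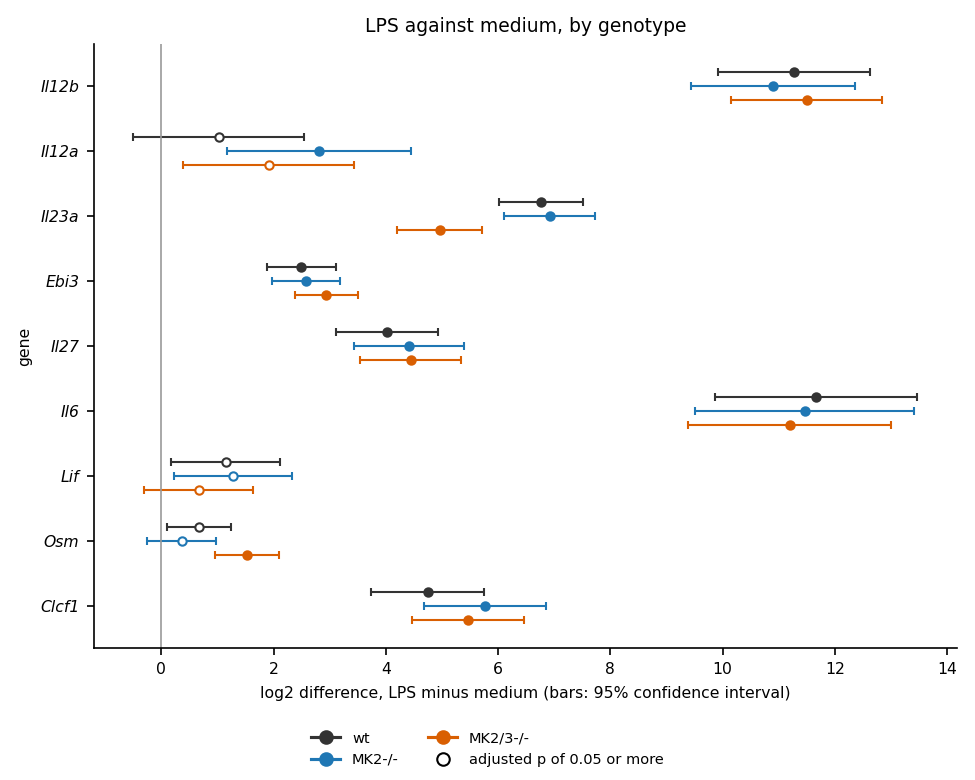
Log2 difference between LPS and medium (x axis) for each member (y axis) in the 3 genotypes, as points with 95% confidence intervals, filled where the adjusted p was under 0.05. Il6 and Il12b lie between 10.90 and 11.67, Il23a lies at 6.76, 6.92 and 4.96 against medium values below detection, and Osm and Lif lie between 0.36 and 1.53.

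The genotypes were compared next after LPS, the question being whether loss of MK2, or of both kinases, alters the cytokine transcripts. Between MK2-/- and wt BMDM, 0 of the 9 members differed past the adjustment, with 0.0308% of all genes doing so, and 1 member, Il12a, had an unadjusted p under 0.05, as did 7.5% of all genes. Between MK2/3-/- and wt BMDM 0 members were higher and 1 was lower, beside 0.773% and 0.869% of all genes. Between MK2/3-/- and MK2-/- BMDM 1 member was lower, beside 0.104% of all genes. In both cases the member was Il23a.

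Il23a after LPS was lower in MK2/3-/- BMDM (6.78 ± 0.33, SD, n = 4) than in wt (8.57 ± 0.86, n = 4) and MK2-/- BMDM (8.64 ± 0.83, n = 4). The brightest MK2/3-/- array, at 7.25, lay below the dimmest array of the other genotypes, at 7.76, and groups separated in this direction for 2.89% and 3.08% of all genes. The log2 difference from wt BMDM was -1.78 (SE 0.36, 95% confidence interval -2.53 to -1.03, adjusted p = 0.0150), and that from MK2-/- BMDM was -1.86 (SE 0.36, interval -2.61 to -1.11, adjusted p = 0.0408). These are signals 3.44-fold and 3.63-fold lower. The SE and intervals pool the spread of all 6 groups. For Il23a the SD was 0.02 to 0.10 in medium, where it was undetected, and 0.33 to 0.86 after LPS. The unadjusted limma p against wt BMDM was 8.44e-05 in this fit and 0.00346 with only the groups compared. Against MK2-/- BMDM it was 5.33e-05 and 0.00215. The exact permutation test gave 0.0286 for both, the smallest p that 4 arrays against 4 allow. Within culture letters the difference from wt BMDM ranged from -3.19 in culture b to -0.75 in culture e and was below 0 in 4 of 4. MK2-/- and wt BMDM differed by 0.07 (interval -0.68 to 0.82), and which of the first 2 positions in the order they take cannot be read from these arrays.

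The call of Il23a against MK2-/- BMDM was close to the threshold and was lost in 21 of 35 other settings, most of which left out a single array. Against wt BMDM it was lost in 4 of 35, with an adjusted p of 0.0664 without the wt LPS array of replicate 1, 0.0549 without the MK2/3-/- LPS array of replicate 2, 0.263 with only both groups in the fit and 0.376 by the methods' t-test (0.00825 before adjustment). The methods state no adjustment, so that by their own threshold of 0.05 this call holds, and the difference stayed at -1.78 in both of the last fits.

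Osm after LPS went the other way. Its mean log2 signal was 8.72 ± 0.26 (SD, n = 4) in MK2/3-/-, 7.80 ± 0.27 (n = 4) in MK2-/- and 7.76 ± 0.64 (n = 4) in wt BMDM. All MK2/3-/- arrays lay above all arrays of the other genotypes, a separation found for 2.92% of all genes against wt and for 2.06% against MK2-/- BMDM. The difference was 0.96 (SE 0.27, interval 0.39 to 1.53) from wt and 0.93 (SE 0.27, interval 0.36 to 1.50) from MK2-/- BMDM, with adjusted p-values of 0.0875 and 0.269, so that neither passed. Osm was higher in MK2/3-/- BMDM in 4 of 4 letters against both genotypes. Against wt BMDM it passed with the letter as a block across genotypes (adjusted p = 0.0425) and with normexp background (adjusted p = 0.0263). Without the wt LPS array of replicate 1, at 6.80 the dimmest of the group, the difference from wt BMDM was 0.64 with an adjusted p of 0.287.

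For Il12b the means after LPS were ordered wt (14.38 ± 0.90, SD, n = 4), MK2-/- (15.13 ± 0.37, n = 4) and MK2/3-/- (15.61 ± 0.48, n = 4). The MK2/3-/- arrays exceeded the wt array of the same letter by 0.88 to 2.16 in 4 of 4 cultures, but the groups overlapped, and the difference of 1.24 (interval -0.11 to 2.59) had an adjusted p of 0.424. This interval pools the spread of all 6 groups. The SD of Il12b was 0.85 to 1.50 in medium, near background, and 0.37 to 0.90 after LPS. The adjusted p was 0.0539 with normexp background (difference 1.27) and 0.0520 with the letter as a block across genotypes. It was 0.299 with 75th percentile scaling and 0.749 without the wt LPS array of replicate 1, so that none of these passed. Neighbours in the order did not differ beyond their spread. Il12b and Il23a, whose products form IL-23, had differences of opposite sign between MK2/3-/- and wt BMDM, and that of Il23a alone passed the adjustment.

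Ebi3 was 0.60 higher in MK2/3-/- than in wt BMDM (interval 0.04 to 1.16, adjusted p = 0.333), and above the wt array of the same letter in 4 of 4 cultures. The Ebi3 groups overlapped, with an exact permutation p of 0.143. Its interval draws on all 6 groups, and medium arrays varied less (SD 0.07 to 0.29) than LPS arrays (SD 0.46 to 0.51). The interval therefore understates the spread among the LPS arrays. Il12a was 1.82 higher in MK2-/- than in wt BMDM (interval 0.30 to 3.34, adjusted p = 0.626), with 3 of the 8 arrays well above background. The groups overlapped (exact permutation p = 0.114). Here too the interval pools all 6 groups, and the SD of Il12a was 0.04 to 0.09 in medium, where it was undetected, and 1.24 to 1.77 after LPS. For Il6 the differences from wt BMDM were 0.85 (interval -0.95 to 2.66) in MK2-/- and 0.46 (interval -1.34 to 2.27) in MK2/3-/- BMDM, and the arrays of the 3 genotypes overlapped. Il27, Clcf1 and Lif differed from wt BMDM by -0.63 to 0.38, with adjusted p-values of 0.604 or more.

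**Figure D3:**
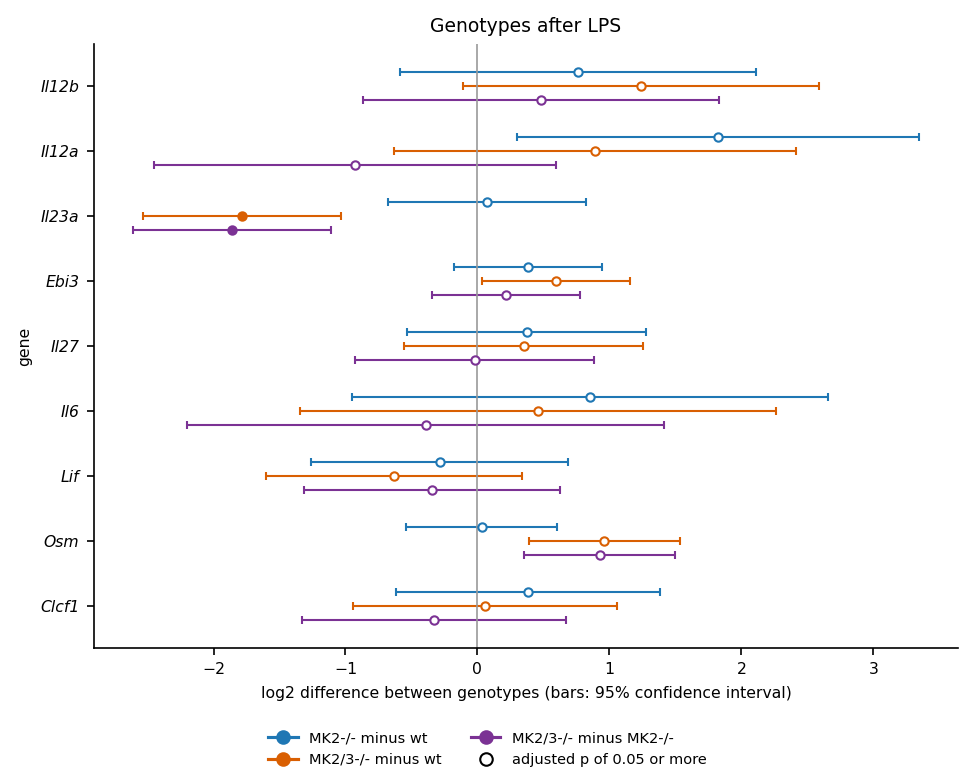
Log2 difference between genotypes after LPS (x axis) for each member (y axis), as points with 95% confidence intervals, filled where the adjusted p was under 0.05. Both filled points belong to Il23a, at -1.78 and -1.86, and the intervals of Osm for MK2/3-/- BMDM lie above 0 with adjusted p-values of 0.0875 and 0.269.

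In medium, 0 members differed past the adjustment in any of the 3 genotype comparisons, and 0 had an unadjusted p under 0.05. Of all genes, 0.00769% passed the adjustment for MK2-/- against wt, 0.0769% for MK2/3-/- against wt and 0.0461% for the knockouts against each other, and 3.42%, 4.63% and 3.57% had an unadjusted p under 0.05. The widest differences in medium were those of Il12b, at 1.13 (interval -0.33 to 2.59) in MK2-/- and 1.01 (interval -0.33 to 2.36) in MK2/3-/- BMDM relative to wt, and of Il6, at 1.06 and 0.93, in signals close to background.

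The LPS response itself was compared between genotypes by the interaction term. No member passed the adjustment, beside 0.00384% of all genes for MK2-/- against wt, 0.0115% for MK2/3-/- against wt and 0% for MK2/3-/- against MK2-/- BMDM. At an unadjusted p under 0.05 there were 0, 2 and 2 members, beside 1.91%, 4.54% and 2.88% of all genes, and the members were Il23a and Osm both times. For Il23a the response of MK2/3-/- BMDM was lower than that of wt by 1.80 on the log2 scale (SE 0.51, unadjusted p = 0.00209, adjusted p = 0.487) and differed from that of MK2-/- BMDM by -1.96 (SE 0.53, unadjusted p = 0.00146, adjusted p = 1.00). For Osm it was larger by 0.85 (SE 0.39, unadjusted p = 0.0396) and 1.17 (SE 0.40, unadjusted p = 0.00902), with an adjusted p of 1.00 for both. That Osm rose past the threshold in MK2/3-/- BMDM alone is therefore not shown to be a difference between genotypes, and the same holds for Il12a in MK2-/- BMDM.

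The culture letters went with the level of several members after LPS. Culture b gave the highest LPS array in all 3 genotypes for 5 of the 9 members, Il12b, Ebi3, Il27, Il6 and Clcf1, and culture e the lowest in all 3 for 2, Il27 and Il6. For Il6, culture b lay 0.82 to 1.44 above the mean of its group and culture e 0.63 to 1.14 below it, and for Il27 culture b lay 0.80 to 1.20 above and culture e 0.77 to 1.27 below. For Il23a culture b was likewise the highest in wt and MK2-/- BMDM, with culture c the lowest, whereas in MK2/3-/- BMDM culture b was the lowest and culture e the highest. The letters were examined after their values had been seen and no test is given. The same count was not made for all genes. Deviations from the group mean, taken across 25902 genes, correlated between genotypes at a median of 0.153 for the same letter and -0.0653 for different letters. Whether the pattern is particular to the members was not tested. A letter did not stand for a fixed age of the mice, which for culture b was 13 weeks for wt BMDM, 11 for MK2-/- BMDM and 12 for MK2/3-/- BMDM.

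**Figure D4:**
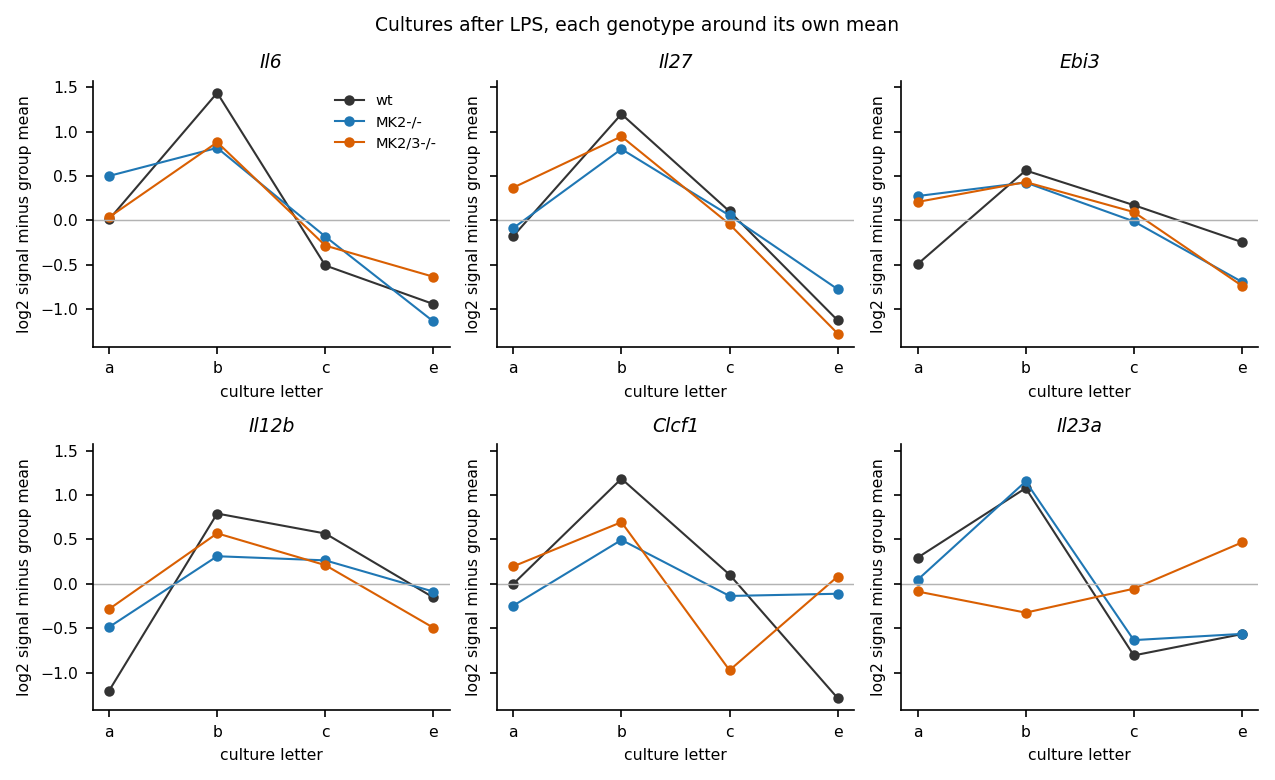
Log2 signal after LPS minus the mean of its genotype (y axis) for 6 members by culture letter (x axis), with 1 line per genotype joining single arrays. Culture b is the highest point of all 3 lines for Il6, Il27, Ebi3, Il12b and Clcf1, and the line of MK2/3-/- BMDM for Il23a has its lowest point there.

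Likeness of pattern was measured as the root mean square difference between the 6 group means, each gene centred on its own mean. The candidates were the 15769 genes that all arrays of at least 1 group showed well above background. Members were left out of them, so that likeness between members, such as Il6 and Il12b, was not ranked. Of the candidates, the nearest to Il6 were Ifnb1 (0.81 log2 units) and Il1a (0.91), and these were also the nearest named candidates to Il12b (0.90 and 0.94). After LPS the mean of Ifnb1 was 14.87 in wt and 13.15 in MK2-/- BMDM. Between MK2-/- and wt BMDM Il6 differed by 0.85 (interval -0.95 to 2.66) and Il12b by 0.76 (interval -0.59 to 2.11). Both intervals hold 0, so that these differences have no clear direction, and a contrast with Ifnb1 was not tested. An unnamed transcript, AK156907, was among the nearest 3 of both. Il23a was nearest to Lad1 (0.47), Shisa3 (0.54) and Il4i1 (0.55), Il27 to Klf7 (0.15), Nxpe3 (0.16) and Usp18 (0.16), and Clcf1 to the transcript XR_168557 (0.24), Tslp (0.25) and Inava (0.26). Ebi3 was nearest to Aebp2 (0.06), AK052071 (0.06) and XR_168636 (0.07), Osm to Il10ra (0.09), Hk2 (0.10) and Slc22a15 (0.11), Lif to Tpm1 (0.10), Yrdc (0.11) and Bpifa3 (0.11), and Il12a to AA212771 (0.25), AK048087 (0.28) and Stard4 (0.31).

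Of 11 receptor genes of both families, 0 rose and 1 fell in wt and in MK2-/- BMDM, and 0 rose and 2 fell in MK2/3-/- BMDM. With 8.26% to 11.9% of all genes rising and 8.89% to 12.9% falling, counts this small say nothing particular to receptors. Il6ra, the ligand-binding chain of the IL-6 receptor, fell in all 3, by 1.67 (SE 0.32) in wt, 1.60 (SE 0.34) in MK2-/- and 1.31 (SE 0.32) in MK2/3-/- BMDM on the log2 scale, with adjusted p-values of 0.000722, 0.00204 and 0.00394. Il6st, which encodes the shared chain gp130, differed by -0.30, -0.19 and 0.19, with adjusted p-values from 0.586 to 0.770. Il11ra1 fell by 0.66 in MK2/3-/- BMDM (adjusted p = 0.00704). Il23r, the receptor chain for Il23a, was well above background on 0 arrays, and Cntfr, through which Clcf1 acts, was well above background on 0 of 4, 0 of 3 and 1 of 4 arrays in medium and on 2 of 4, 2 of 4 and 4 of 4 after LPS, with adjusted p-values of 0.327, 0.104 and 0.0505 for the difference. Osmr and Lifr did not pass the test either. Of 5 other ligands of the IL-6 family (Cntf, Ctf1, Ctf2, Il11 and Il31), 0 were called in any genotype.

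Of 8 genes of JAK and STAT signalling, wt and MK2-/- BMDM each had 3 that rose, MK2/3-/- BMDM had 6, and 0 fell, where 8.26%, 8.48% and 11.9% of all genes rose in wt, MK2-/- and MK2/3-/- BMDM. Jak2, Socs1 and Socs3 rose in all 3. Socs3, the feedback inhibitor of gp130 signalling, rose by 7.85 (SE 0.26), 7.28 (SE 0.28) and 7.72 (SE 0.26) on the log2 scale, Socs1 by 7.48, 7.11 and 8.38, and Jak2 by 3.55, 3.60 and 3.61. In MK2/3-/- BMDM Stat3 and Stat4 rose by 1.42 and 1.44 and Ptpn11 by 0.28, with adjusted p-values from 0.00674 to 0.0435. After LPS 0 of the 8 differed between genotypes past the adjustment.

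Of 19 genes known to act on Il6 or Il12b promoters or transcripts, 13 rose and 1 fell in wt, 11 rose and 2 fell in MK2-/- and 14 rose and 2 fell in MK2/3-/- BMDM, beside 8.26%, 8.48% and 11.9% of all genes that rose and 8.89%, 10.1% and 12.9% that fell. Among the transcription factors, Nfkbiz rose by 5.40, 5.99 and 5.07 and Rel by 4.77, 4.65 and 4.56. Irf1, not well above background in medium, rose by 18.1-, 23.6- and 31.9-fold over the lowest signals that counted as well above background. Zfp36, whose product destabilizes transcripts and is a substrate of MK2, rose by 2.27, 1.86 and 2.27, and Zc3h12a, the RNase Regnase-1, by 3.82, 3.95 and 3.68. Zfp36l2 fell by 4.92, 6.30 and 5.64, and Zfp36l1 fell by 3.45 in MK2-/- and 2.76 in MK2/3-/- BMDM, with -1.11 (adjusted p = 0.153) in wt. After LPS, 2 of the 19 were higher in MK2/3-/- than in wt BMDM, beside 0.773% of all genes, namely Atf3 by 1.40 (SE 0.26, adjusted p = 0.00868) and Irf8 by 2.09 (SE 0.47, adjusted p = 0.0307). Arid5a, which stabilizes Il6 transcripts, was 2.01 higher with an adjusted p of 0.0538. None of the 19 was called between MK2-/- and wt BMDM after LPS.

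**Figure D5:**
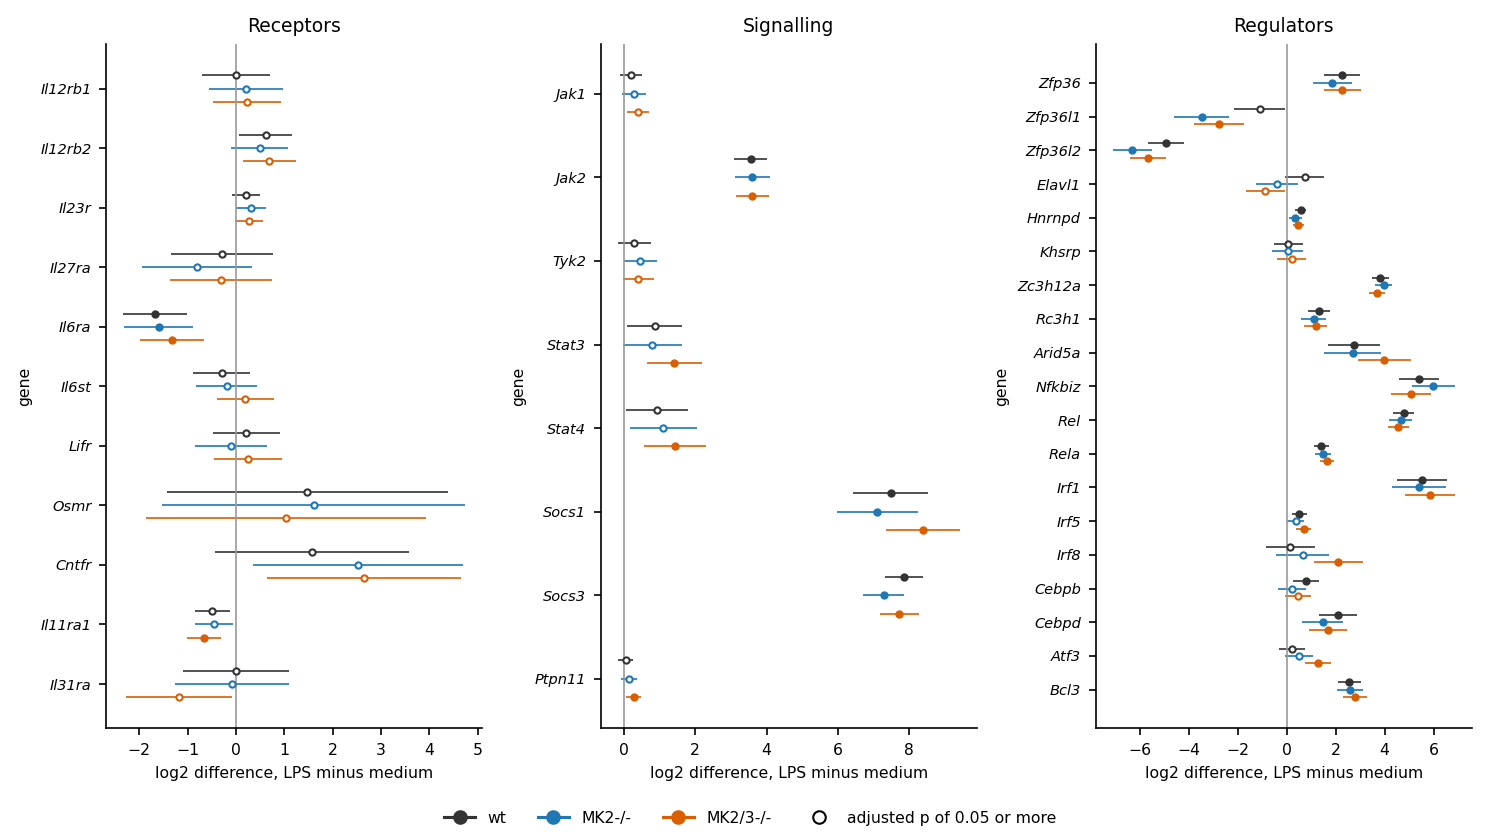
Log2 difference between LPS and medium (x axis) for receptors, signalling genes and regulators (y axis) in the 3 genotypes, as points with 95% confidence intervals, filled where the adjusted p was under 0.05. Among receptors only Il6ra and, in MK2/3-/- BMDM, Il11ra1 are filled, whereas Socs3 lies between 7.28 and 7.85 and Zfp36l2 between -6.30 and -4.92. Irf1 is set against medium values below detection.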

How the data were processed

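Per the file headers and the study's methods, the authors labelled each RNA with Cy3, hybridized it to an Agilent mouse expression array and extracted spot intensity values with Agilent Feature Extraction; the deposited processed signal is an intensity with background subtracted and a spatial trend removed, and 2 of the 23 arrays had no fit of the multiplicative gradient. The authors also deposited a table of log2 values, quantile-normalized and set to the median of each probe, which served as an alternative.

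From the intensities, control spots and spots marked as outliers were left out (112 values missing among the genes), log2 signals were averaged per probe and quantile-normalized over 55681 probes. Of these, 32885 had an NCBI accession and 27510 were named through RefSeq (GRCm38.p6). Of several probes for a gene, that most induced by LPS in wt cells was used, a choice that favours LPS induction but does not touch the members, which had 1 probe each. The 26014 genes were fitted with limma 3.58.1 in R 4.3.3 (lmFit, eBayes, 6 groups, all 23 arrays), with Benjamini-Hochberg adjustment at 0.05. Tests were two-sided. Exact permutation tests over arrays were added for members. For a gene not well above background in one group, the fold was taken against the lowest signal of any probe well above background on each array of that group. Such a fold depends on the background method and is not a strict lower bound. The fit of group means was tried on simulated arrays drawn independently of each other. The correlation between arrays of the same letter, given below, was not part of that trial. The number of arrays limits the precision. Between 56.5% and 73.28% of the probes with an NCBI accession were well above background.

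The members and gene lists were chosen with earlier results of these data known. Named genes were the members, the genes of the lists, Mapkapk2 and Mapkapk3, and the 3 genes outside the members most like each member. Some genes of the lists are not reported here and were left out of the list counts. Deviations from the group mean of medium and LPS arrays with the same letter correlated at 0.0657 to 0.5656 (10 of 11 pairs above 0.1) over 25902 genes, against -0.3783 to 0.1209 for different letters. Between genotypes, arrays with the same letter had a median correlation of 0.153 (16 of 22 pairs above 0.1), against -0.0653 for different letters (9 of 66); no source says that a letter is shared between genotypes. The alternatives changed the scaling, the background, the source of values, the filter, the floor, the probe, the samples in the fit, the test, the replicate block and the arrays included.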

Additional observations from a re-analysis of the deposited data

Results flagged for a closer look

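In 3 of the 44 groups of 4 arrays tested with Dixon's criterion, 1 array lay far from the other 3, where chance flags about 1 in 20 groups. Osm in wt BMDM after LPS had replicate 1 at a log2 signal of 6.7977, with a gap of 0.9507 of the range of the group. Without it MK2-/- minus wt BMDM after LPS came to -0.29 in place of 0.03 (limma adjusted p = 0.912). Clcf1 in wt BMDM in medium had replicate 1 at 6.6807, with a gap of 0.8384 of the range. Il12a in MK2/3-/- BMDM in medium had replicate 1 at 1.9157, with a gap of 0.8733 of the range, a signal not well above background.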

How the results depend on the processing

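Under 35 other settings, of which 23 left out 1 array, none of the 34 differences followed changed direction, and the LPS calls of Il12b, Il23a, Ebi3, Il27, Il6 and Clcf1 held in all 3 genotypes. Between MK2/3-/- and wt BMDM after LPS, 1 member passed the adjustment; the number was 2 with normexp background and with the letter as a replicate block across genotypes (chosen after seeing the data), where Osm joined Il23a (adjusted p = 0.0263 and 0.0425), 0 with only the groups compared and by the methods' t-test, and 0 to 1 when single arrays were left out. Between MK2/3-/- and MK2-/- BMDM after LPS, the 1 member was lost (0) with 75th percentile scaling, normexp background, only the groups compared, the methods' t-test and an intensity trend, and the count was 0 to 1 when single arrays were left out; the cause was not tested. Lif in wt BMDM passed after LPS without the MK2-/- medium replicate 2 (adjusted p = 0.0485). With the culture as a replicate block within genotype, Osm in wt (adjusted p = 0.0414) and Il12a in MK2/3-/- BMDM (0.0314) passed after LPS, Il23a kept its differences of -1.78 (0.0177) and -1.86 (0.0497), and no other call of a member changed. Il12a in MK2/3-/- BMDM also passed in 5 further settings. Normexp lowered the LPS differences of Il23a to 2.78, 2.75 and 1.48 in wt, MK2-/- and MK2/3-/- BMDM. In the same order it lowered those of Il12b to 8.12, 8.66 and 9.16 and those of Il6 to 8.75, 9.26 and 9.02, so that the size of these rises depends on the background method. Scaling to the 75th percentile moved the median of all genes by 0.12 for LPS in wt, 0.19 for LPS in MK2-/- and 0.14 for MK2/3-/- against wt after LPS. Over all genes, 427 differed between MK2/3-/- and wt BMDM after LPS, against 6 with only the groups compared, 5 by the methods' t-test and 128 to 240 where leaving out an array moved the count by over 1.5 times; for MK2/3-/- against MK2-/- BMDM the 42 genes became 22 with 75th percentile scaling, 8 with only the groups compared and 3 by the methods' t-test. Signals near background limit Il12a in all groups and Il12b, Il23a and Il6 in medium.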
